A study of Homo sapiens with 44 samples.

Results

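Chromatin accessibility in Ccd18-Co, an adherent fibroblast line from human colon, was compared directly between cells given IL-1β and cells given TNF. The comparison took the 4 IL-1β libraries and the 4 TNF libraries out of 44 libraries in 11 groups of 4, over every peak of the deposited table, and it was set by treatment label and not by any measured value. The study profiled these cells by ATAC-seq, in which a transposase cuts open DNA and leaves sequencing adaptors at the cuts, to record what single cytokines do to the chromatin of intestinal stroma. All groups were starved in medium without serum and then kept for a day in the same medium. The IL-1β concentration was 0.1 ng/ml and that of TNF 10 ng/ml, so the cytokine and the concentration cannot be told apart in any value below, and at 1 place the study's text names a lower IL-1β concentration than the labels do. The 4 unstimulated libraries served to show on which side of the starting level a difference lay. The model is 1 cell line, and the labels do not say whether the 4 replicates of a group came from separate cultures, so the p-values measure the spread between these libraries, which may be technical.

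IL-1β signals through IL1R1 and the adaptor MYD88, and TNF through TNFRSF1A and the TRADD and TRAF proteins. Both routes activate the NF-κB family of transcription factors and the kinases that drive AP-1, a dimer of FOS and JUN proteins. In fibroblasts both cytokines are known for inducing chemokines, matrix-degrading enzymes and prostaglandin synthesis, and C/EBPβ and C/EBPδ, factors of the acute phase response, are well-known partners of NF-κB downstream of IL-1. TEAD factors are the DNA-binding partners of YAP and TAZ, which keep contractile and matrix genes active in stretched or myofibroblast-like cells.

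Of 407383 peaks of 500 bases, 407174 were tested and 5357 differed between the cytokines, 1.32% of those tested. Among them 4071 were higher with TNF (1.00% of tested peaks) and 1286 higher with IL-1β (0.316%), so 24.0% of the differing peaks leaned to IL-1β (95% Wilson interval 22.9 to 25.2, counting error only). A peak was called when its adjusted p from limma, on log2 of coverage per Mb of a library's total coverage (per Mb) plus 0.5, was under 0.05. The median size of a called difference was 0.98 on the log2 scale, and 2541 peaks differed by at least 1. The 4 libraries of each group did not overlap in 4665 of the called peaks, against 6.28% of all tested peaks. The count rested in part on single libraries, since it was 3006 without TNF replicate 2 and 3558 without IL-1β replicate 4, and the share leaning to IL-1β was 19.7% and 19.8% there. Bulk coverage cannot tell a site that is open in fewer cells from one that is less open in each cell.

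The sequences below show what the peaks with the largest differences held. The first 3 are from the 4 peaks that stood highest with TNF over IL-1β, and each holds a match to the NF-κB consensus, in capitals. All sequences are 200 bases of the plus strand of hg38, read 5′ to 3′ from within the peak, at chr6:35368195-35368394 (PPARD, intron), chr17:58344499-58344698 (SUPT4H1, intron) and chr17:35892722-35892921 (CCL5, intergenic).
PPARD: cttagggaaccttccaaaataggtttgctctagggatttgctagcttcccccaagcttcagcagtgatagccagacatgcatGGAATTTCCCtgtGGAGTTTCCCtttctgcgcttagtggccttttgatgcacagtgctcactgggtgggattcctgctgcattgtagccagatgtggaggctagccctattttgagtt
SUPT4H1: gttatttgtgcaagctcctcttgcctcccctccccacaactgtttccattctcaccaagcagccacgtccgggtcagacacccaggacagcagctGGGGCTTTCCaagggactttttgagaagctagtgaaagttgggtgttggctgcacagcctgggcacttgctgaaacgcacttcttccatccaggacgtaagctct
CCL5: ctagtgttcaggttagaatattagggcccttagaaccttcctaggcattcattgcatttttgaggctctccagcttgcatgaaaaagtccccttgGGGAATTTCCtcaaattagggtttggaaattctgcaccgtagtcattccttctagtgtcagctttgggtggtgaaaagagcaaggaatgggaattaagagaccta

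Among the 12 peaks that stood highest with IL-1β over TNF, 6 hold the C/EBP string TTGCNNAA, which 25.8% of all tested peaks hold. The TEAD string GGAATG also stands in 6 of these 12, and in 5 of the 12 that stood highest with TNF. The next 3 sequences show C/EBP matches in capitals, at chr1:15615647-15615846 (DDI2, intergenic), chr9:106869054-106869253 (ZNF462, intron) and chr1:57003515-57003714 (C8B, intron).
DDI2: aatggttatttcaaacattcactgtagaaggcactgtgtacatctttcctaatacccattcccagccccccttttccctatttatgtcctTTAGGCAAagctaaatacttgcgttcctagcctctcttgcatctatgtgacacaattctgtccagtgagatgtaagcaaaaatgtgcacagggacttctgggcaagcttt
ZNF462: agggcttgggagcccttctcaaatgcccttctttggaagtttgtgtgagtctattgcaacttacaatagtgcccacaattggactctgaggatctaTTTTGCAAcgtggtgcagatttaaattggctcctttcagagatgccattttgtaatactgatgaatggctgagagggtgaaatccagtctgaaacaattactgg
C8B: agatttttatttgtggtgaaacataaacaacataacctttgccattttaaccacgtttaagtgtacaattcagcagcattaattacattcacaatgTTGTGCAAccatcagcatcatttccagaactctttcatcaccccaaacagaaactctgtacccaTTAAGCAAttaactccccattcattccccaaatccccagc

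The last pair comes from the loci with the most peaks higher with TNF, at chr15:39589328-39589527 in a THBS1 peak and at chr15:63023260-63023459 before TPM1. The centre of the THBS1 peak lies in a coding exon but outside the printed bases, so that label does not cover the marked string. The capitals mark the TEAD string GGAATG on either strand. The string does not set these loci apart. It stands in 8 of the 25 called THBS1 peaks and 3 of the 14 called TPM1 peaks, and in 28.8% of all tested peaks.
THBS1: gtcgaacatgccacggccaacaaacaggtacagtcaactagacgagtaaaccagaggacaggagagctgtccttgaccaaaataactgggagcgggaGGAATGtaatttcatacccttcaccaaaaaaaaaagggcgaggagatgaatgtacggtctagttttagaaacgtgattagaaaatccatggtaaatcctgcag
TPM1: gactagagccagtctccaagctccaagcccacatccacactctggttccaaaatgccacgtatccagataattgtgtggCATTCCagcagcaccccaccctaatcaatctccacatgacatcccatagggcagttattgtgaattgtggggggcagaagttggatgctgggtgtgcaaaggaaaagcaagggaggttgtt

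The peaks that favoured TNF most had opened with TNF, and all but the ADA peak were not called for IL-1β against unstimulated cells. The first was the intronic peak of PPARD (chr6:35368049-35368549), a gene for a lipid-sensing nuclear receptor. Its coverage per Mb was 2.55, 2.90, 3.56 and 3.27 with IL-1β and 25.0, 34.4, 27.2 and 21.5 with TNF, and the unstimulated mean was 1.23. The groups stood far apart, with TNF 8.80-fold higher, a log2 difference (IL-1β minus TNF) of -2.93 ± 0.33 (SE, n = 4 against 4, limma adjusted p = 8.93e-13). TNF raised the peak by 3.97 over unstimulated cells (adjusted p = 4.36e-23), whereas the IL-1β difference of 1.04 missed the threshold (adjusted p = 0.0529).

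Near CCL5, which encodes a T cell and monocyte attractant, the peak at chr17:35892598-35893098 held 0.384, 1.28, 0 and 0.229 per Mb with IL-1β and 6.39, 6.53, 3.73 and 6.31 with TNF. The IL-1β libraries scattered around the unstimulated mean of 0.501, and all but replicate 2 were under the level of 3 reads. Every TNF library lay above every IL-1β library (log2 difference -2.81 ± 0.40, adjusted p = 3.23e-08). A second peak named for CCL5, just before it, went the same way (chr17:35892082-35892582, means 1.56 with IL-1β and 9.32 with TNF, log2 difference -2.31 ± 0.37, adjusted p = 1.37e-06). The start-site peak of CCL5 itself was weak and was not called, with means of 1.04 and 1.15 (-0.04 ± 0.40, adjusted p = 0.99). The peak in an intron of ADA (chr20:44594671-44595171), the enzyme that clears adenosine, rose with both cytokines. It held 6.83, 3.98, 3.97 and 8.61 with IL-1β and 29.9, 32.1, 24.8 and 26.7 with TNF over an unstimulated mean of 2.20, and it was 4.85-fold higher with TNF (log2 difference -2.25 ± 0.29, adjusted p = 1.33e-09). For IL-1β against unstimulated the ADA peak differed by 1.20 (adjusted p = 0.00369), and all 12 named TNF peaks were called for TNF against unstimulated. In those comparisons with unstimulated cells, which share the unstimulated libraries, 3.50% of tested peaks were called for IL-1β and 4.36% for TNF.

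The others of the 12 were named for LINC01449, SUPT4H1, which encodes a transcription elongation factor, ZMIZ2, NAT10, LINC01539, MIR8073, A3GALT2, CTAGE1 and C12orf75, and their log2 differences ran from -2.88 to -2.22. None of the 12 was promoter-class, 9 were intronic and 3 distal. All 12 hold an NF-κB match, which 13.0% of all tested peaks hold. The table names the gene it takes as nearest, and the names say nothing of which gene a peak acts on.

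The peaks that favoured IL-1β most were of more than 1 kind. The peak with the largest difference, named for ZNF32 (chr10:43691974-43692474, intergenic), was open in unstimulated cells and closed by TNF. It held 11.8, 8.73, 8.71 and 12.5 per Mb with IL-1β, 1.23, 0.408, 1.61 and 2.07 with TNF and 7.42 on average in unstimulated cells. The difference was 2.66 ± 0.23 on the log2 scale (adjusted p = 4.42e-20), and TNF lay 2.20 below unstimulated (adjusted p = 3.96e-15) while the IL-1β difference from unstimulated was 0.46 (adjusted p = 0.397). It holds none of the 10 strings searched.

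The ELF3 peak opened with IL-1β instead. ELF3 encodes an ETS-family factor of epithelia that is inducible by inflammatory cytokines in other cells. The peak lies over a start of ELF3-AS1 and a UTR (chr1:202010210-202010710) and held 7.40, 7.37, 9.40 and 10.2 per Mb with IL-1β, 2.22, 2.06, 2.26 and 1.24 with TNF and 0.686 on average in unstimulated cells. The groups did not overlap (log2 difference 1.90 ± 0.38, adjusted p = 2.79e-04). IL-1β raised it by 3.02 over unstimulated (adjusted p = 2.02e-11), and the TNF difference was 1.12 (adjusted p = 0.0659). Its direct call was lost with a pseudocount of 0.1 (adjusted p = 0.063).

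The SBF2 intron peak (chr11:10285333-10285833) was the strongest of the 12 by coverage, with 15.6, 12.0, 13.5 and 15.6 per Mb for IL-1β, 3.57, 4.27, 3.32 and 3.39 for TNF and 2.57 on average in unstimulated cells (log2 difference 1.82 ± 0.28, adjusted p = 6.93e-07). Every IL-1β library stood above every TNF library, and TNF against unstimulated gave 0.56 (adjusted p = 0.372). A peak named for MESD (chr15:80936205-80936705) lies at -416 bases from a start of CEMIP, which encodes a hyaluronan-degrading protein, and held 2.59, 3.75, 3.07 and 5.66 with IL-1β and 0.980, 0.204, 0.858 and 0.769 with TNF (log2 difference 1.83 ± 0.38, adjusted p = 7.13e-04). The remaining peaks, named for DDI2, ZNF462, MIR549A, C8B, ABHD17C, SH2D4A, SYNJ2-IT1 and SDC3, had log2 differences from 1.82 to 2.19. The ABHD17C, MIR549A and MESD peaks lie in 1 stretch of chromosome 15 (80638656 to 80936705), so the 12 are not all separate regions. Of the 12, 10 were called for IL-1β against unstimulated and 1, ZNF32's, for TNF against unstimulated. Besides ZNF32's, the C8B peak was not called for IL-1β against unstimulated (0.99, limma adjusted p = 0.157).

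**Figure D1:**
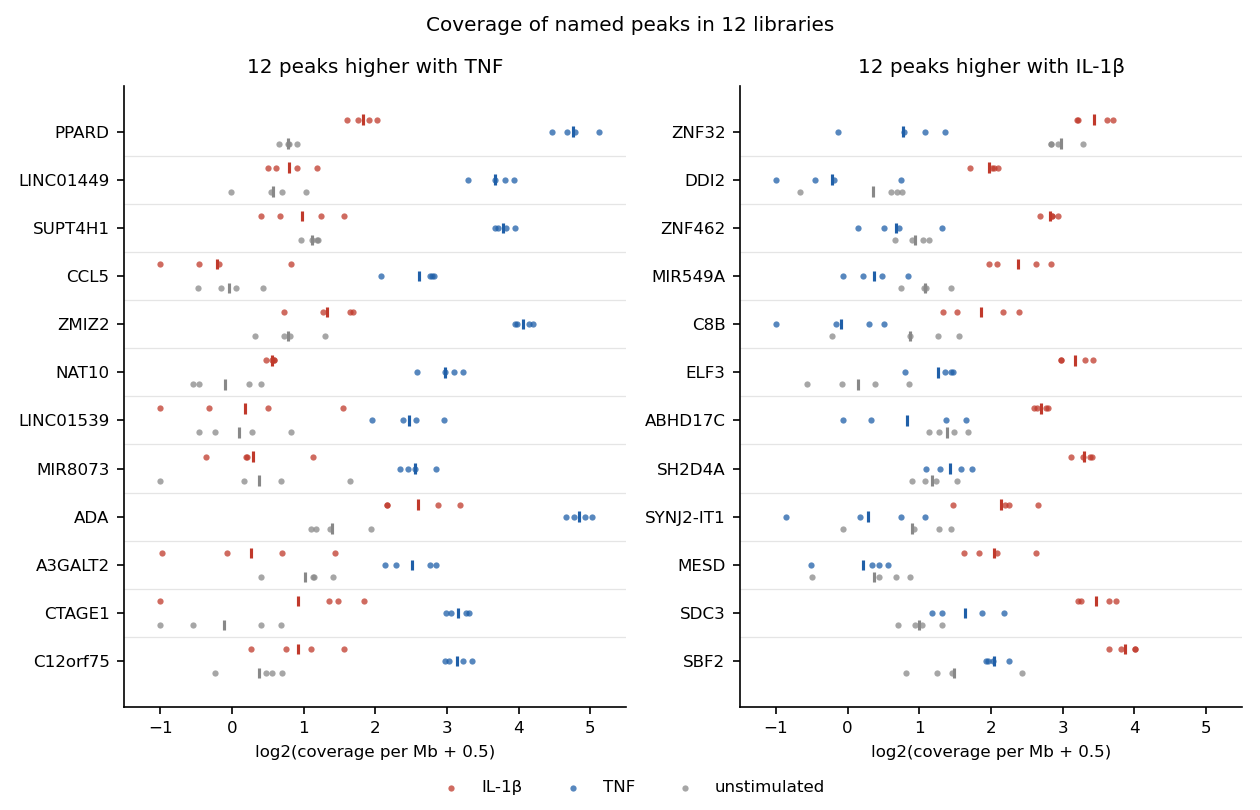
Coverage of the 24 named peaks in each library, as log2 of coverage per Mb plus 0.5 on the horizontal axis, with dots for libraries and ticks for group means. The TNF libraries stand right of all others in the left panel, and the IL-1β libraries stand right of the TNF libraries in the right panel. At ZNF32 and C8B the unstimulated libraries overlap those of IL-1β.

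The called peaks were split by where the unstimulated mean lay, with no call against unstimulated required. Of the 4071 peaks higher with TNF, 1018 (25.0%) had an unstimulated mean below both cytokines, 2229 (54.8%) between them and 824 (20.2%) above both. The direction of each cytokine follows from how these sets were defined, and the medians give its size. In the first set the median log2 difference from unstimulated was 1.51 for TNF and 0.35 for IL-1β. In the set in between it was 0.43 for TNF and -0.46 for IL-1β. In the last set, below the unstimulated level with both, it was -0.24 for TNF and -1.09 for IL-1β. Of the 1286 peaks higher with IL-1β, 136 (10.6%) had the unstimulated mean below both, 790 (61.4%) between and 360 (28.0%) above both. In the 790 the median was -0.6 for TNF and 0.49 for IL-1β, and in the 360 it was -1.23 for TNF and -0.30 for IL-1β. Over all tested peaks the 3 positions held 33.6%, 31.0% and 35.4%. A call needs a gap between the cytokine means, which by itself favours the position in between. The larger share in between among called peaks is therefore no result about them. The shares of called peaks moved with the settings, for the first set of TNF peaks from 17.0% to 39.6%.

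**Figure D2:**
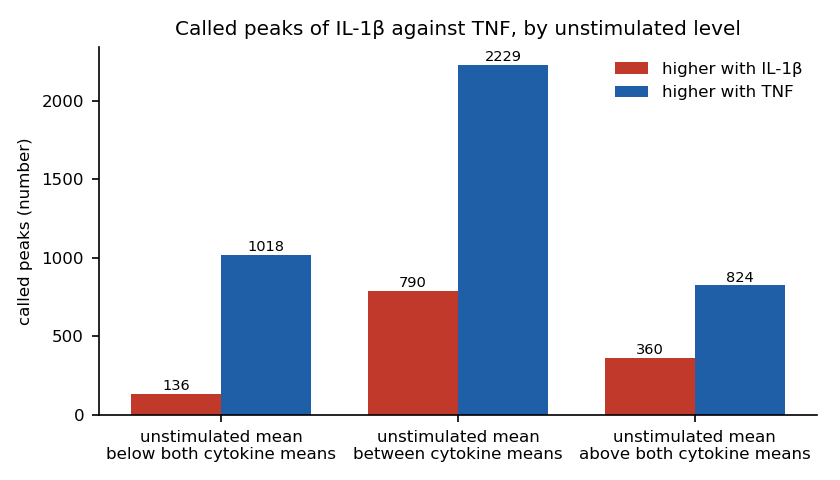
Number of peaks called higher with IL-1β (red) or with TNF (blue), on the vertical axis, by where the unstimulated mean lay relative to both cytokine means. Peaks with the unstimulated mean in between are the most numerous in both directions, and 1018 TNF peaks against 136 IL-1β peaks have it below both.

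Called peaks lay away from promoters. Promoter-class peaks made up 7.1% of tested peaks, 2.6% of those higher with IL-1β and 3.8% of those higher with TNF. Intronic peaks made up 51.7%, 53.3% and 53.9%, and distal peaks 34.5%, 38.7% and 37.4%. Called peaks also had more coverage, with a median of 6.60 per Mb against 0.780 over all tested peaks, and 5047 of them had a mean of at least 1 per Mb. In simulated libraries of this size 33% of 2-fold and 97% of 4-fold changes were recovered (100 changed peaks each, among 407247 simulated peaks). The changed peaks were drawn only from those with more coverage. Recovery at weak peaks was therefore not measured, and these shares do not hold for all tested peaks.

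The sequence of the called peaks differed by direction. NF-κB matches stood in 23.9% of peaks higher with TNF, 8.2% of peaks higher with IL-1β and 13.0% of all tested peaks. Among TNF peaks the share was 48.8% where the unstimulated mean lay below both, 17.4% where it lay between and 10.8% where it lay above both. TEAD strings ran the other way across the same TNF sets, with 41.7%, 51.4% and 57.9%. Over all peaks higher with TNF the TEAD share was 50.3%, against 27.6% for IL-1β peaks and 28.8% of all tested peaks.

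The C/EBP string marked the other direction. It stood in 40.3% of peaks higher with IL-1β, 26.7% of peaks higher with TNF and 25.8% of all tested peaks, and its share in IL-1β peaks was 38.2%, 42.2% and 36.9% with the unstimulated mean below, between and above. AP-1 strings (TGAGTCA) were found in 21.2% of IL-1β peaks, 28.0% of TNF peaks and 17.5% of all tested peaks, and in 33.8% of the IL-1β peaks with the unstimulated mean below both. The RUNX string TGTGGTT reached 17.8% in TNF peaks against 10.7% in IL-1β peaks and 10.9% of all tested peaks. The strings FOX TGTTTAC, GAS TTCNNNGAA and CRE TGACGTCA and the ISRE, the interferon-stimulated response element, lay within 4 percentage points of the share in all tested peaks in both directions, and the GC box GGGCGG was at 16.0% of all tested peaks, 10.6% in IL-1β peaks and 8.1% in TNF peaks. Mean GC content was 46.7% over all tested peaks, 45.7% in IL-1β peaks and 43.8% in TNF peaks.

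The shares were also taken over peaks more like the called ones, which were mostly not promoters and had more coverage. In 147052 tested peaks that were not promoter-class and had at least 1 per Mb, 13.7% held NF-κB, 30.6% TEAD, 25.8% C/EBP and 24.2% AP-1. In the central 201 bases of a peak, NF-κB matches stood in 17.1% of TNF peaks, 4.0% of IL-1β peaks and 7.0% of all tested peaks. TEAD was at 33.4%, 11.7% and 14.7% there, and C/EBP at 11.9%, 24.0% and 12.3%. Read from the sequence side, 1.84% of peaks with an NF-κB match were higher with TNF against 0.874% of peaks without one, 1.75% against 0.698% for TEAD, and 0.493% against 0.254% of peaks with and without the C/EBP string were higher with IL-1β. Matches on both strands were counted. NF-κB and TEAD matches overlapped in 44 of the 484 called peaks with both, AP-1 and TEAD in 25 of 598, C/EBP and NF-κB in 1 of 246, and other pairs of these 4 in none. A match describes letters and was not tested as a binding site.

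**Figure D3:**
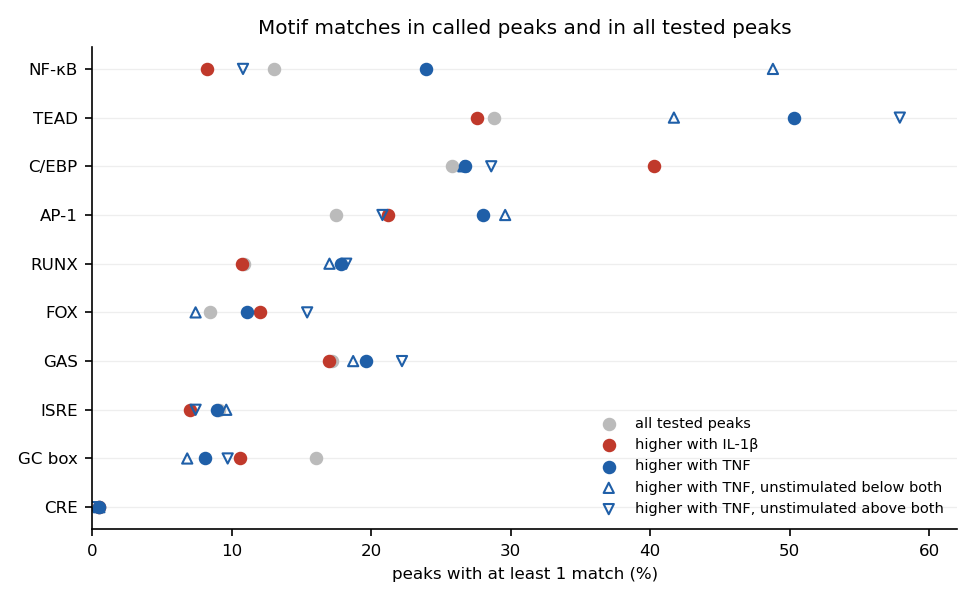
Share of peaks with at least 1 match to each string, in percent on the horizontal axis, for all tested peaks, peaks higher with IL-1β and peaks higher with TNF, the last also split by the unstimulated level. NF-κB at 48.8% stands out where TNF peaks started low, TEAD at 57.9% where they started high, and C/EBP at 40.3% in the peaks higher with IL-1β.

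For genes of the pathways involved, the tested peak nearest to a start site was compared. Of 235 such peaks 14 were called (5.96%), 13 of them higher with TNF, while 0.796% of the 79321 tested peaks within 1 kb of any start site were called. The lists were chosen with earlier results of these data known, and some hold markers of other cell types, so the higher share is a description and no evidence about these pathways.

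Among chemokines, 3 of 12 start-site peaks were higher with TNF and none with IL-1β. CCL2, the monocyte attractant (chr17:34254979-34255479), held 17.9, 13.5, 16.2 and 15.7 per Mb with IL-1β and 29.5, 25.9, 26.5 and 27.6 with TNF, over an unstimulated mean of 13.5. The groups did not overlap (direct difference -0.78 ± 0.15, adjusted p = 1.92e-04), and against unstimulated the test called TNF (1.00, adjusted p = 4.71e-08) and not IL-1β (0.22, adjusted p = 0.614). CCL11, an eosinophil attractant (chr17:34285332-34285832), was open before stimulation, at 7.75. It held 2.17, 1.75, 2.50 and 2.43 with IL-1β and 7.42, 6.17, 7.88 and 5.04 with TNF, so that TNF libraries stayed near the starting level and IL-1β libraries lay below it (direct difference -1.38 ± 0.24, adjusted p = 1.11e-05, IL-1β against unstimulated -1.57, adjusted p = 6.21e-08).

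CXCL10, a T cell attractant of the interferon response, was at 0.974 in unstimulated cells and rose to a mean of 4.03 with IL-1β and 9.44 with TNF (direct difference -1.12 ± 0.32, adjusted p = 0.0379). That call was lost without any 1 of IL-1β replicates 1 to 4 or of TNF replicates 2, 3 and 4, with an adjusted p of up to 0.18, and with a pseudocount of 0.1 (adjusted p = 0.261). The neutrophil chemokines, the ligands of CXCR1 and CXCR2, gave no call among 6 start-site peaks in the limma test, where 1 had an unadjusted p under 0.05. Their summed coverage per Mb ran from 89.3 to 104 with IL-1β and from 109 to 119 with TNF, without overlap, over 44.9 to 51.1 in unstimulated cells. Such sums were also higher with TNF, without overlap, in the NF-κB, TNF receptor, other chemokine, adhesion and contractile lists. In the remaining lists they overlapped. CXCL8 opened strongly with both cytokines, from 2.27 to means of 16.2 with IL-1β and 23.8 with TNF (direct difference -0.52 ± 0.30, adjusted p = 0.581). CXCL1 went from 11.7 to 26.6 and 33.7 (-0.34 ± 0.15, adjusted p = 0.406). A p over the threshold does not show that the cytokines act alike there.

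Among cytokines and growth factors, IL32 and CSF3 went opposite ways. IL32, an inflammatory cytokine (chr16:3065062-3065562), held 6.18, 4.79, 4.95 and 6.18 with IL-1β and 14.4, 13.9, 14.5 and 13.4 with TNF, and 2.29 in unstimulated cells (direct difference -1.28 ± 0.26, adjusted p = 4.40e-04). CSF3, which encodes the granulocyte growth factor G-CSF, was the only start-site peak of the 235 called higher with IL-1β (chr17:40015247-40015747). It held 10.6, 10.3, 12.7 and 8.30 with IL-1β, 4.69, 3.78, 3.73 and 3.67 with TNF and 1.67 in unstimulated cells (1.29 ± 0.32, adjusted p = 0.00961). Without IL-1β replicate 3 its adjusted p was 0.0614, and with a pseudocount of 0.1 it was 0.0741. Another peak named for CSF3 (chr17:40018070-40018570) went from 1.01 to 9.66 with IL-1β and 2.48 with TNF (1.81 ± 0.34, adjusted p = 1.16e-04), and all 3 called peaks of the gene were higher with IL-1β, of which the one at chr17:40018575-40019075 was lost without TNF replicate 2 or 3 (adjusted p up to 0.0753).

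CSF1, the macrophage growth factor, was the counterpart, with 3 called peaks that were all higher with TNF, none of them at its start site, where the weak peak was not called (means 0.947 with IL-1β and 0.622 with TNF, 0.39 ± 0.39, adjusted p = 0.83). The intronic peak at chr1:109917754-109918254 held 2.98, 3.16, 3.32 and 1.14 with IL-1β and 10.0, 13.9, 8.27 and 9.45 with TNF over an unstimulated mean of 2.40 (-1.84 ± 0.28, adjusted p = 2.95e-07). The call at chr1:109927848-109928348 was lost without IL-1β replicate 3 (adjusted p = 0.079) and with a pseudocount of 0.1 (adjusted p = 0.0792). For the whole list of 16 cytokines and growth factors, 17 of 534 named peaks were higher with TNF and 5 with IL-1β, and these 22 calls became 14 without TNF replicate 2.

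In the NF-κB list 1 of 16 start-site peaks was called, that of TNFAIP3, which encodes the feedback inhibitor A20 (means 16.3 with IL-1β, 24.3 with TNF and 13.7 unstimulated, -0.56 ± 0.16, adjusted p = 0.0458). The call was lost in 13 of 21 alternatives, among them the one without IL-1β replicate 2 (adjusted p = 0.269). NFKBIA, which encodes the inhibitor IκBα, had means of 13.5 and 19.2 and missed the threshold (-0.49 ± 0.15, adjusted p = 0.0598). In the TNF receptor list the caspase inhibitor BIRC3 was at 17.0 with IL-1β and 27.9 with TNF over 6.53 (-0.70 ± 0.19, adjusted p = 0.0242), a call lost in 7 alternatives, 6 of them without 1 library (adjusted p up to 0.107, without IL-1β replicate 2). The start-site peaks of the receptors themselves gave no call, with IL1R1 at 8.80 and 9.15 (-0.07 ± 0.18, adjusted p = 0.956) and TNFRSF1A at 8.37 and 9.87 (-0.21 ± 0.18, adjusted p = 0.782). Of 74 peaks named for IL1R1, however, 2 were called, both higher with IL-1β, and none of 28 named for TNFRSF1A. The IL1R1 peak at chr2:102100574-102101074 held 5.12, 5.64, 8.70 and 8.49 with IL-1β and 3.82, 3.94, 1.60 and 1.36 with TNF over an unstimulated mean of 5.79 (1.31 ± 0.25, adjusted p = 9.44e-05). The groups did not overlap, and the unstimulated mean lay within the range of the IL-1β libraries. The other, at chr2:102046238-102046738, had means of 8.97 and 4.17 over 7.35 (1.02 ± 0.23, adjusted p = 0.00239).

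ICAM1, the leukocyte adhesion molecule (chr19:10270813-10271313), held 7.85, 6.42, 9.05 and 4.37 with IL-1β and 16.3, 17.8, 18.3 and 16.6 with TNF over 3.48 (-1.30 ± 0.26, adjusted p = 5.40e-04).

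Prostaglandin genes leaned to IL-1β at PTGS2, the inducible cyclooxygenase, although not at its start site. The start-site peak had means of 14.5 with IL-1β and 13.6 with TNF (0.09, adjusted p = 0.933). The peak at chr1:186670181-186670681, 5438 bases from the nearest start, held 32.8, 40.0, 40.6 and 42.3 with IL-1β and 19.1, 11.6, 14.8 and 13.4 with TNF over an unstimulated mean of 9.17. Each IL-1β library stood far above each TNF library (1.39 ± 0.22, adjusted p = 1.21e-06). The neighbouring peak at chr1:186671072-186671572 held 37.6, 31.8, 39.6 and 31.5 against 18.0, 7.45, 11.5 and 11.9 over 10.1 (1.54 ± 0.22, adjusted p = 1.63e-08). Of 486 peaks named for the 15 genes of the list, 7 were higher with IL-1β and 4 with TNF, 7 in all without IL-1β replicate 3. Matrix degradation gave no start-site call among 14 (limma, 1 with an unadjusted p under 0.05), with MMP3 at means of 14.8 with IL-1β and 10.1 with TNF over 5.37 (0.52 ± 0.23, adjusted p = 0.384). Of 510 peaks named for the matrix degradation list 10 were higher with TNF and 2 with IL-1β, and these 12 calls became 5 without IL-1β replicate 4.

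The AP-1 and C/EBP list had no call among 17 start-site peaks (limma, 2 with an unadjusted p under 0.05), and yet 11 of its 413 named peaks were higher with IL-1β and 1 with TNF. The 11 were 8 of FOS, 2 of CEBPD and 1 of JUNB. The list's 12 calls became 3 without TNF replicate 2 and 7 without any 1 of IL-1β replicates 1, 2 and 3. At FOS, 7 of the 11 peaks from 2 kb before the gene to 2 kb past it were called, all higher with IL-1β, and no peak of the 11 had a lower IL-1β than TNF mean. The peak over a FOS coding exon (chr14:75280706-75281206) held 10.6, 9.24, 10.1 and 9.21 with IL-1β, 5.30, 5.82, 3.56 and 4.83 with TNF and 14.9 in unstimulated cells (0.95 ± 0.17, adjusted p = 4.68e-05). Both cytokines had lowered it, TNF by more (TNF against unstimulated -1.52, adjusted p = 1.60e-13, IL-1β against unstimulated -0.57, adjusted p = 0.0372). Of the 9 called FOS peaks, 7 were lower with TNF than in unstimulated cells and 3 lower with IL-1β. The locus had 2 called peaks without TNF replicate 2 and 5 without IL-1β replicate 1, IL-1β replicate 2 or TNF replicate 3, while the coding-exon peak was called in all 21 alternatives. CEBPD, a C/EBP gene that IL-1 is known to induce, had means of 12.2 and 12.9 at its start site (-0.08 ± 0.16, adjusted p = 0.931).

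Contractile and matrix genes were the list with the most calls, and all of them were higher with TNF. Of 20 start-site peaks 5 were called, and of 727 named peaks 43 (5.91%), with 22 calls without IL-1β replicate 2 and 26 without TNF replicate 2. ACTA2, smooth muscle actin (chr10:88952575-88953075, named for ACTA2-AS1 in the table), held 8.15, 7.69, 7.67 and 8.04 with IL-1β and 12.3, 20.0, 13.7 and 14.4 with TNF, and 19.5 in unstimulated cells. Every TNF library lay above every IL-1β library, and all but TNF replicate 2 lay below the unstimulated mean (-0.87 ± 0.14, adjusted p = 3.19e-06). TPM2, a tropomyosin of the actin filament (chr9:35689761-35690261), held 19.4, 15.2, 22.1 and 15.4 with IL-1β, 28.6, 31.2, 33.7 and 28.3 with TNF and 27.5 in unstimulated cells (-0.75 ± 0.11, adjusted p = 3.56e-07).

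TAGLN, an actin-binding protein of smooth muscle, was at means of 6.19 with IL-1β, 10.8 with TNF and 12.0 unstimulated (-0.75 ± 0.17, adjusted p = 0.00299). That peak (chr11:117201622-117202122) lies at a start site inside the gene, 2.50 kb past the gene start. MYLK, the kinase of myosin light chain (named for MYLK-AS1 in the table), was at 27.6, 35.7 and 45.7 (-0.36 ± 0.09, adjusted p = 0.00903), and CCN2, the growth factor also called CTGF, at 12.1, 17.7 and 17.2 (-0.53 ± 0.14, adjusted p = 0.0151). The MYLK call was lost with loess offsets (adjusted p = 0.114) and without TNF replicate 2 (adjusted p = 0.121). The CCN2 call was lost without IL-1β replicate 2 (adjusted p = 0.0658) or TNF replicate 4 (adjusted p = 0.083). COL1A1, the main fibrillar collagen, was lowered by both cytokines, from 9.13 to 4.25 with IL-1β and 4.59 with TNF (direct difference -0.12 ± 0.21, adjusted p = 0.920).

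**Figure D4:**
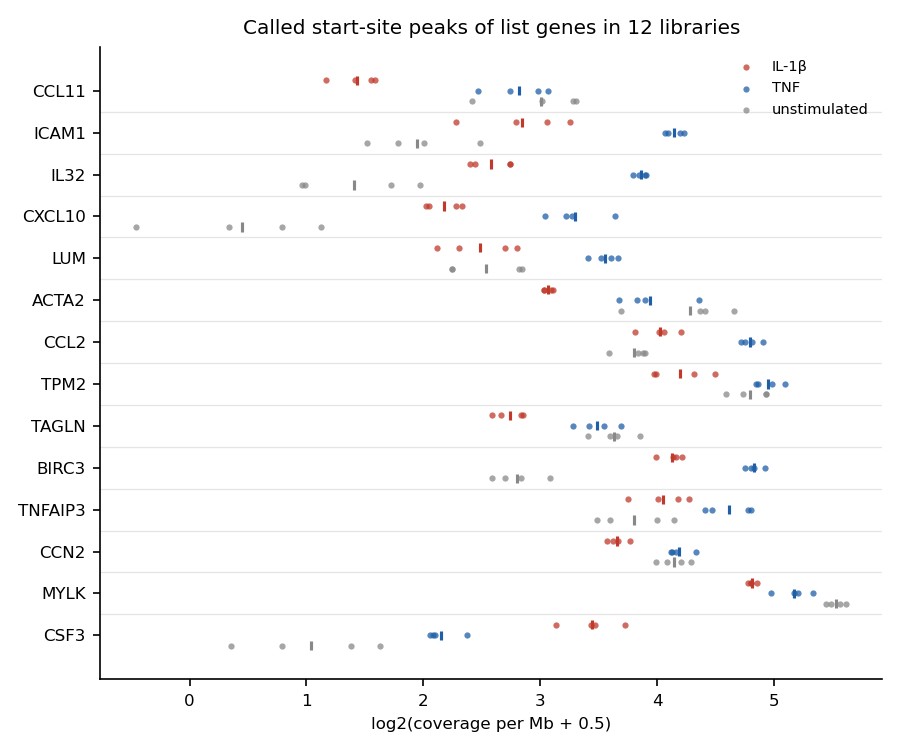
Coverage of the 14 called start-site peaks in each library, as log2 of coverage per Mb plus 0.5, with dots for libraries and ticks for group means. In 13 peaks the TNF libraries stand right of the IL-1β libraries, at CCL11 and the contractile genes with the unstimulated libraries on the TNF side, and CSF3 alone has the IL-1β libraries on the right.

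The clearest block of differences lay over THBS1, which encodes thrombospondin 1, a matrix protein that activates TGF-β. By the gene the table names, THBS1 had the most called peaks, 25 of 132 tested, all higher with TNF. From 2 kb before the gene to 2 kb past its end 22 of 32 peaks were called and 31 of 32 had the lower mean with IL-1β, with a median log2 difference of -0.80, while elsewhere under the same name 3 of 100 were called and the median was -0.02. The called peaks ran through coding exons, introns and UTRs. The start-site peak (chr15:39580789-39581289) held 12.9, 8.84, 12.6 and 10.8 with IL-1β, 20.8, 21.5, 18.4 and 17.9 with TNF and 24.8 in unstimulated cells (-0.79 ± 0.12, adjusted p = 1.36e-06). The exonic-class peak that holds the THBS1 sequence printed above (chr15:39589035-39589535) held 1.92, 1.46, 1.13 and 0.975 against 3.91, 6.56, 5.04 and 3.99 over 8.17 (-1.52 ± 0.21, adjusted p = 4.20e-09). Of the 25 peaks, 24 were lower with IL-1β than in unstimulated cells and 15 lower with TNF, comparisons that share the unstimulated libraries. Leaving out 1 IL-1β or TNF library left between 18 and 23 called peaks.

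TPM1, the other tropomyosin among the loci, had 14 of 63 peaks called, 13 of them among the 38 in and around the gene, all higher with TNF, and 10 of the 14 were lower with IL-1β than in unstimulated cells while none was called for TNF. TAGLN had 8 of 18 called, again all higher with TNF, all 8 lower with IL-1β than in unstimulated cells and none called for TNF. Its strongest peak, promoter-class and at the gene start (chr11:117198979-117199479), held 41.8, 38.4, 34.6 and 41.0 with IL-1β and 57.6, 56.0, 48.5 and 57.0 with TNF over 55.8 (-0.49 ± 0.08, adjusted p = 6.39e-06). The peak at chr11:117209529-117210029 past the end of TAGLN showed -1.30 ± 0.17 (adjusted p = 1.04e-09). CCN2 had 8 of 53 peaks called in the same direction. The counts fell to 5 for TPM1, 4 for TAGLN and 3 for CCN2 without IL-1β replicate 2, to 7, 5 and 4 without TNF replicate 2, and to 9 and 5 for TPM1 and TAGLN without IL-1β replicate 4, and CCN2 had 5 called peaks without IL-1β replicate 4 or without any 1 of TNF replicates 1, 3 and 4. TAGLN kept the peaks at both coordinates above in all 21 alternatives. The other loci among the 10 were ZFP36L1 with 13 called of 309, MIR6090 with 9 of 195, LOC101929935 with 9 of 233, TNFSF18, which encodes a TNF-family ligand, with 8 of 62, and LINC01539 with 8 of 79. Called peaks of TNFSF18 and LINC01539 were all higher with TNF, and those of LOC101929935 split into 6 higher with IL-1β and 3 with TNF. Leaving out 1 library took ZFP36L1 to as few as 5 (IL-1β replicate 4), MIR6090 to 4 (IL-1β replicate 4 or TNF replicate 2), LOC101929935 to 3 (TNF replicate 1 or 3) and TNFSF18 to 5 (IL-1β replicate 2 or TNF replicate 4), while LINC01539 kept at least 7. These loci were taken for their number of called peaks, so the counts describe them.

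**Figure D5:**
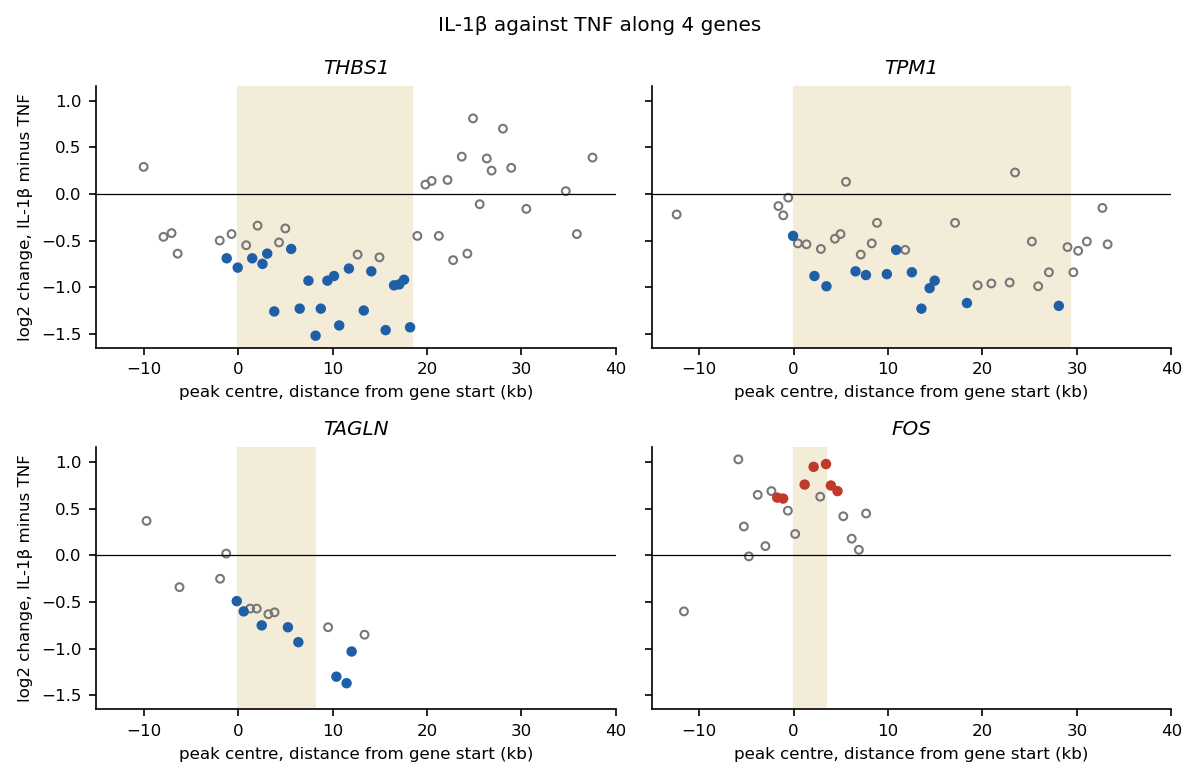
Log2 difference (IL-1β minus TNF) of each tested peak, on the vertical axis, by the distance of its centre from the gene start in kb, for THBS1, TPM1, TAGLN and FOS. Filled points are called, open points are not, the shaded band is the gene body, and peaks beyond the plotted distance are left out. The called peaks in view lie below 0 at THBS1, TPM1 and TAGLN and above 0 at FOS, and over and around the gene 22 of 32 peaks are called at THBS1, 13 of 38 at TPM1 and 5 of 12 at TAGLN.

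The remaining lists had few calls at start sites. LUM, a collagen-binding proteoglycan of the fibroblast list, rose with TNF, with 3.84, 4.45, 6.01 and 6.48 with IL-1β and 12.2, 10.1, 11.0 and 11.7 with TNF over 5.43 (-1.07 ± 0.22, adjusted p = 7.18e-04, TNF against unstimulated 1.01, adjusted p = 4.87e-04, IL-1β against unstimulated -0.05, adjusted p = 0.965). By named peaks, the TGF-β pathway had 15 higher with TNF and 3 with IL-1β of 1110, the fibroblast list 14 and 1 of 656, the interferon list 8 and 1 of 372, the IL-1 receptor list 4 and 5 of 450, the TNF receptor list 4 and 0 of 439, and adhesion and antigen presentation 2 and 0 of 328. In the NF-κB list 8 and 1 of 537 were called, among other chemokines 10 and 1 of 192, and among neutrophil chemokines 1 and 1 of 171. Markers of other cell types had 7 and 1 of 361 (endothelial), 1 and 0 of 67 (epithelial) and 1 and 0 of 58 (leukocyte). Without 1 library the calls in either direction went down to 3 for the interferon list (IL-1β replicate 3 or TNF replicate 2), 4 for NF-κB (IL-1β replicate 2 or TNF replicate 2), 8 for fibroblast markers (TNF replicate 2), 6 for other chemokines (IL-1β replicate 4), 5 for endothelial markers (IL-1β replicate 3) and 0 for neutrophil chemokines, epithelial and leukocyte markers. The shares over all tested peaks are the 1.00% and 0.316% given above.

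Depth and composition of the libraries were compared between the groups. Total coverage ran from 330 to 520 Mb with IL-1β and from 373 to 727 Mb with TNF, and the share of peaks at 0 from 2.71% to 9.51% and from 3.37% to 10.3%. None of 5 library measures passed 0.05 in a two-sided exact permutation test (raw p from 0.0571, for the GC content of the coverage, adjusted p from 0.286 to 0.886, smallest possible p 0.0286). The unstimulated libraries were not in that test. Their share of coverage in the 1% strongest peaks was 13.6% to 14.4%, against 12.2% to 13.5% with IL-1β and 13.2% to 13.5% with TNF. Their total coverage and share of peaks at 0 overlapped both groups. What this does to differences from unstimulated was not tested. Correlations between libraries were 0.847 to 0.894 within a group and 0.827 to 0.898 between IL-1β and TNF. Of the fibroblast markers, TWIST1 was at 8.13 with IL-1β and 6.98 with TNF and THY1 at 6.34 and 5.79, so these leaned to IL-1β. Over the 14 fibroblast start-site peaks the summed coverage leaned to TNF, with 67.5 to 79.1 for IL-1β and 76.1 to 87.7 for TNF. In unstimulated cells that sum ran from 75.1 to 85.6. No start-site peak of 4 epithelial, 6 endothelial and 5 leukocyte markers was called in the limma test (1, 0 and 0 with an unadjusted p under 0.05). Their summed coverage was 7.81 to 11.4 with IL-1β and 6.81 to 10.6 with TNF for epithelial markers, 4.66 to 7.50 and 4.88 to 5.90 for endothelial, and 49.4 to 58.3 and 46.2 to 55.2 for leukocyte markers. PTPRC, the pan-leukocyte marker, was not at 0, with means of 11.6 and 10.9, and EPCAM, the epithelial marker, was at 2.69 and 2.26. The median start-site coverage per Mb over both groups was 5.88 for fibroblast, 5.99 for leukocyte, 1.99 for epithelial and 0.728 for endothelial markers. Openness therefore did not tell fibroblast from leukocyte markers. No expression values were used here, and an open start-site peak does not show that a gene is expressed.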

How the data were processed

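ATAC-seq was analysed from 1 deposited table with 44 library columns, whose names are the library numbers of the labels. The deposited signal adds up read coverage base by base over a peak (hg38), so it is neither a read count nor scaled. The authors used the ENCODE ATAC-seq pipeline with MACS2, and which filter made this table is not given in the sources used here. The methods describe bulk peaks of variable length and peaks of a fixed 500 bases from single-cell ATAC-seq, so the tested regions may be the single-cell set, which the sources do not state. Whether starts count from 0 or 1 is not stated, and coordinates are as in the table. The most frequent low value was 75 bases, taken as 1 read, so a peak with 3 reads had 0.310 to 0.685 per Mb in these libraries. Coverage follows whole reads, not shifted cut sites, and has no molecular identifiers.

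Each column was divided by its total in Mb and by a trimmed composition factor (30% of log ratios and 5% of means trimmed). Peaks with a log2 mean of at most -3 (209) were left out. Log2 of the value plus 0.5 was fitted with limma 3.58.1 (R 4.3.3, trend, 11 groups, all 44 libraries, no block), with Benjamini-Hochberg adjustment over all tested peaks. The deposited unit is coverage, so a log-scale test took the place of a count test. Fold differences on this scale understate those of weak peaks. The script was tested on simulated data. Same-numbered IL-1β and TNF libraries did not deviate together (r from -0.0041 to 0.0021), so numbers were not taken as pairs. Exons, introns and start sites came from GENCODE v44, and gene names and peak classes from the table. Motifs were searched in hg38 over both strands.

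Named peaks were called, reached 1 per Mb on average over all libraries, had groups that did not overlap, and were called with the same sign under library totals, median-of-ratios scaling, loess offsets and a GC correction. The 12 with the largest change in each direction were named, at most 1 per gene. From 17 gene lists the called start-site peaks and 2 to 4 others were named, and loci were the 10 genes with the most called peaks. The members and lists were chosen with earlier results of these data known. The CSF1, CCL5, CSF3, IL1R1 and PTGS2 peaks away from start sites were chosen after their values were seen. The sequence of 1 peak and the values of 1 list gene are not reported here.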

Additional observations from a re-analysis of the deposited data

Results flagged for a closer look

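Among 129 groups of 4 values checked for a sample far from the others, 5 were found, and chance alone gives about 1 in 20. The CCL5 peak was at 3.73 per Mb in TNF replicate 3 while the other TNF libraries lay at 6.31 to 6.53. The DDI2 peak was at 0.134 in unstimulated replicate 3 against 1.02 to 1.20 in the others. The start-site peak of CSF3 was at 4.69 in TNF replicate 1 against 3.67 to 3.78. TNF replicate 4 had a total coverage of 727 Mb, with 373 to 389 Mb in the other TNF libraries, and 3.37% of its peaks were at 0 coverage against 9.34% to 10.3%. Without TNF replicate 4 the share of called peaks higher with IL-1β was 27.8%.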

How the results depend on the processing

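The number of peaks called between IL-1β and TNF was 8168 with only the IL-1β and TNF libraries in the fit and 2873 at an adjusted p under 0.01, and leaving out 1 library gave 3006 to 4761. It stayed within 1.5 times of 5357 under the other scalings, pseudocounts, filters, weights, the 12 libraries alone and the replicate block (4382 to 7262). With the replicate block it was 5472, of which 5351 were called without it, and the block changed no direction. The share higher with IL-1β was 27.0% with library totals, 27.6% with loess offsets, 25.3% with a stricter filter, 27.6% with the 12 libraries alone, 27.4% with the 8, 25.6% with array weights and 17.8% at an adjusted p under 0.01, and 19.7% to 27.8% without 1 library. Against unstimulated cells, an adjusted p under 0.01 gave 8669 calls for IL-1β and 10901 for TNF. No named, list or locus peak changed sign in a called value. The NF-κB share in TNF peaks ran from 19.5% to 29.6%, the TEAD share from 45.4% to 53.4% and the C/EBP share in IL-1β peaks from 39.1% to 44.5%. Of the direct values of the 24 named peaks, 502 kept their call and 1 lost it. That stability was largely built in. Calls under library totals, median-of-ratios scaling, loess offsets and the GC correction were conditions for naming, and the largest changes were taken. Calls of list and locus peaks were also lost, as given with their values above. The cause of the shifts between settings was not tested. Depth limits weak peaks most, since the median SE was 0.37 over all tested peaks and 0.22 over called ones.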
